A study of Bos grunniens with 12 samples.

Results

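The metalloprotease family described here takes in the ADAM, ADAMTS, ADAMTSL and MMP genes and their inhibitors, the TIMP genes, in the yak testis. Members were the rows of the deposited expression table whose symbol starts with ADAM, or with MMP or TIMP followed by a digit. This gave 100 of 20953 gene identifiers, under 62 symbols. They were sorted by symbol into 6 germ cell ADAM identifiers (ADAM2, ADAM18, ADAM21 and ADAM32), 19 other ADAM, 34 ADAMTS, 8 ADAMTSL, 27 MMP and 6 TIMP identifiers. The ADAMTS, ADAMTSL and MMP identifiers, 69 in all, are called stromal below, which is a name from the literature on these genes and not a measurement of where they were expressed.

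Whole testis tissue came from 3 yaks (Bos grunniens) of 1.5 years, taken before sexual maturity by castration (Y group), and from 3 yaks of 5 years, taken after maturity and after slaughter (M group). The labels name no genetic change or treatment, antibiotics were given to the castrated animals only after the tissue was taken, and each library stands for 1 animal. Poly(A) RNA was fragmented and sequenced as an input library and as a library bound by an antibody against N6-methyladenosine (m6A), 12 libraries in all. Gene levels are FPKM of the 6 input libraries, a level that counts sequenced fragments relative to transcript length and to library depth. The comparison asks which members differ between the testis before and after sexual maturity. Age and the way the tissue was taken cannot be told apart.

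ADAM proteins are membrane proteins with a metalloprotease-like and a disintegrin domain. Some, such as ADAM10 and ADAM17, cut other proteins off the cell surface, while a testis branch is made by spermatogenic cells, sits on the sperm head and takes part in sperm transport and egg binding. ADAMTS and MMP enzymes are mostly secreted or anchored proteases of the extracellular matrix. They cut proteoglycans, collagens and basement membrane proteins, and in the testis this matrix lies around the seminiferous tubules and between them. ADAMTSL proteins share the matrix-binding domains of ADAMTS enzymes but have no protease domain. TIMP proteins inhibit MMPs and, for TIMP3, several ADAM and ADAMTS enzymes as well.

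The direction of every comparison rests on the age in the library titles. The letters Y and M stand for the opposite ages in the deposited record and in the article, and the record's developmental stage field gives the opposite stage for every sample. Markers of haploid germ cells were higher in the libraries labelled 1.5 years than in those labelled 5 years. TNP1, the transition protein of elongating spermatids, was taken at the more abundant of its 2 identifiers. It had 883, 852 and 879 FPKM at 1.5 years and 201, 641 and 550 FPKM at 5 years. The spermatid markers thus ran against the label of an immature testis. The study also staged the testes by histology, which was not analysed here, and whether ages were exchanged in the titles was not tested. With exchanged ages every sign below would turn. TNP1 was at 201 FPKM or more in each of the 6 libraries, so the group called immature would hold it under either labelling. Spermatocyte markers (7 of 7 tested) had a median log2 difference of 0.04 between the ages. One library stood apart. The 5-year replicate 1 held the lowest value of the 6 libraries for 35.5% of the 12437 genes tested and the highest for 33.7%, and of the 5-year libraries replicate 2 lay nearest to the 1.5-year mean in the spermatid, Sertoli and peritubular marker lists. In whole tissue, fewer cells of a type and less RNA per cell cannot be told apart.

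Differences are given as the 5-year minus the 1.5-year mean on the log2(FPKM + 0.1) scale with the standard error (SE), which understates the change of low genes. They were tested with limma on the 12437 genes whose FPKM averaged 0.5 or more over the 6 libraries, of which 51 were members. None of the 51 had an adjusted p-value under 0.05, against 0.0322% of all genes tested (4 genes), and the smallest adjusted p-value of a member was 0.154. At an unadjusted p-value under 0.05, 7 members were higher at 5 years, against 14.2% of all genes, and 3 were lower, against 10.9%. The libraries of both ages did not overlap for 8 members that were higher (19.8% of all genes) and for 7 that were lower (13.9%). The counts of members were thus at or under what these shares of all genes would give. The median difference was -0.17 over the 51 members and 0.04 over all genes. With 3 libraries per age, an exact permutation test of 1 gene cannot give a p-value below 0.1.

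ADAM18 and ADAM32 of the germ cell group were the most abundant members of the family, and each of the 6 germ cell identifiers had its lowest value in 5-year replicate 1. ADAM18, a sperm surface ADAM without a working protease site, had 188, 207 and 220 FPKM at 1.5 years and 51.1, 193 and 142 FPKM at 5 years (ENSBGRG00000013020). The 5-year libraries spread over a wider range than the 1.5-year ones, and 5-year replicate 2 lay inside the 1.5-year range. The difference was -0.87 (SE 0.46, adjusted p = 0.266). ADAM32, a testis ADAM that stands 1 gene away from ADAM2 in the RefSeq gene order, had 143, 136 and 151 FPKM at 1.5 years and 62.5, 131 and 103 FPKM at 5 years. It was the only germ cell ADAM identifier whose ages did not overlap, with every 5-year library lower by a difference of -0.60 (SE 0.28, adjusted p = 0.223). ADAM2, which codes for fertilin beta, the sperm surface partner of ADAM1, had 60.0, 60.8 and 62.0 FPKM at 1.5 years and 36.2, 64.6 and 52.5 FPKM at 5 years (ENSBGRG00000013291). The 1.5-year libraries were nearly equal and the 5-year libraries lay on both sides of them, with a difference of -0.29 (SE 0.23, adjusted p = 0.418).

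The other 3 germ cell ADAM identifiers were much lower. ADAM21, another testis ADAM, had 8.24, 6.15 and 10.2 FPKM at 1.5 years and 1.53, 8.71 and 4.11 FPKM at 5 years. Its 5-year libraries reached from the lowest value of all 6 to the second highest, with a difference of -1.05 (SE 0.56, adjusted p = 0.271). The second ADAM2 identifier (ENSBGRG00000013979) ranged from 9.86 to 16.0 FPKM at 1.5 years and from 5.53 to 13.1 FPKM at 5 years. The second ADAM18 identifier (ENSBGRG00000012415) ranged from 3.98 to 5.56 FPKM and from 2.55 to 5.52 FPKM. Both overlapped between the ages. Over the 6 identifiers the differences ranged from -1.05 to -0.17 with a median of -0.49, and 0 of 6 had an unadjusted p-value under 0.05. Without 5-year replicate 1 the median was -0.18, and the second ADAM18 identifier turned to 0.16. Without 5-year replicate 2, 4 of 6 were lower at an unadjusted p-value under 0.05, and so were 18.3% of all genes.

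**Figure D1:**
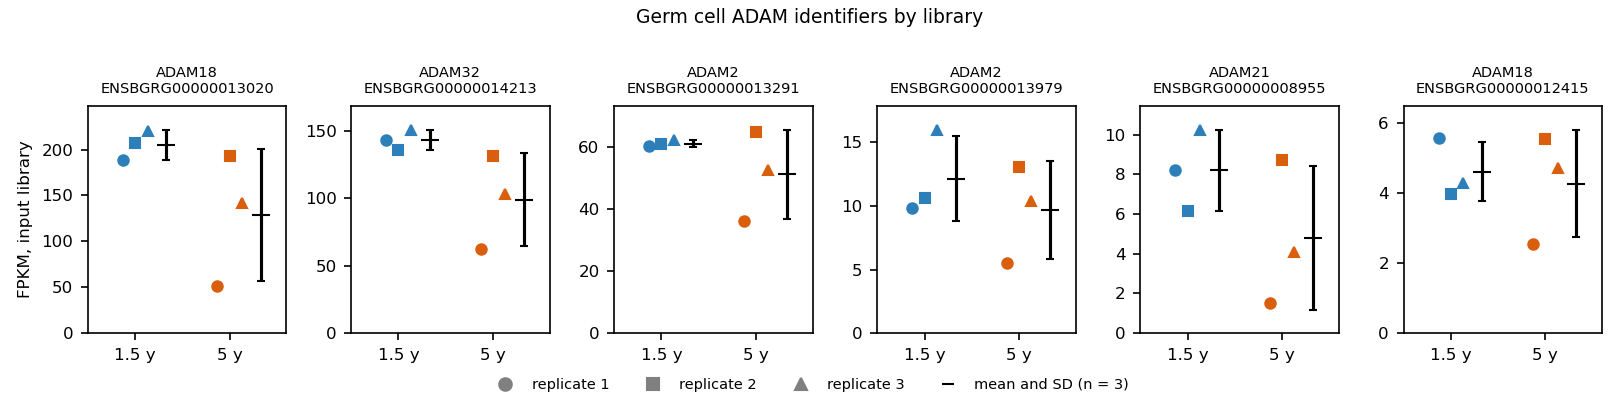
FPKM (vertical axis, linear, from 0) of the 6 germ cell ADAM identifiers in the 6 input libraries, with points for the libraries by age and the mean with its SD (n = 3) beside each age. In each panel 5-year replicate 1 is the lowest of the 6 points, and only for ADAM32 do all 5-year points lie under the 1.5-year points.

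Genes whose products fold, cut or accompany the sperm ADAM proteins were counted from a fixed list of 14. In this list and in the marker lists, a symbol on several identifiers was taken at the one with the highest mean. Of the 14 genes 9 were tested, with a median difference of -1.19. At an unadjusted p-value under 0.05, 4 were lower, against 10.9% of all genes, and 0 were higher, against 14.2%. PRSS37, a protease-like protein needed for sperm ADAM3 processing in mice, had 134, 110 and 99.6 FPKM at 1.5 years and 18.8, 68.9 and 51.7 FPKM at 5 years. Every 5-year library was lower, with a difference of -1.48 (SE 0.45, adjusted p = 0.154). The other 3 were ACE, whose testis form acts on sperm, at -1.37 (SE 0.44), PRSS55, a sperm serine protease, at -1.30 (SE 0.42), and PDILT, a testis chaperone, at -1.21 (SE 0.44), with adjusted p-values of 0.157 to 0.168. CLGN, the calmegin chaperone that pairs ADAM1 with ADAM2, was the most abundant of the list, with 322, 321 and 337 FPKM at 1.5 years and 200, 315 and 299 FPKM at 5 years. Its ages did not overlap, but the difference was only -0.29 (SE 0.23, adjusted p = 0.424). CMTM2, LY6K, PMIS2, RNASE10 and TEX101 were not analysed here.

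Spermatid markers, like the germ cell ADAM genes, were lowest in 5-year replicate 1. Of 7 round spermatid markers 6 were tested and 5 were lower at an unadjusted p-value under 0.05, against 10.9% of all genes. The summed level of the 6 was 176 to 254 FPKM at 1.5 years and 45.6 to 185 FPKM at 5 years. Of 7 elongating spermatid markers 3 were tested and all 3 were lower at that threshold, with sums of 1047 to 1081 FPKM and 239 to 779 FPKM. No marker of these lists that was tested was at 0. ACR, PRM1, PRM2, PRM3 and TNP2 were not analysed here. By library, the median difference from the 1.5-year mean was -1.14, 0.10 and -0.34 for the germ cell ADAM identifiers in 5-year replicates 1, 2 and 3. In the same libraries it was -2.06, -0.18 and -1.65 for round spermatid markers, -2.16, -0.46 and -0.66 for elongating spermatid markers and -0.07, 0.11 and 0.16 for spermatocyte markers. By these medians, replicate 2 was under the 1.5-year mean for both spermatid lists and above it for the germ cell ADAM identifiers. ADAM18 (ENSBGRG00000013020) and ADAM32 were under it, with 193 and 131 FPKM in replicate 2 against 1.5-year means of 205 and 143 FPKM. The 1.5-year libraries themselves lay at -0.12 to 0.09 for germ cell ADAM identifiers. They lay at -0.27 to 0.16 for round and -0.03 to 0.02 for elongating spermatid markers. The part of the spermatid markers in the ADAM result was not tested.

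The stromal identifiers had no common direction. Of the 69 identifiers 29 were tested, 4 were higher and 1 was lower at an unadjusted p-value under 0.05, against 14.2% and 10.9% of all genes, and the median difference was -0.02, against -0.49 for the germ cell ADAM identifiers, and this contrast of groups is a description with no test. The summed FPKM of the stromal identifiers was 97.5, 92.8 and 99.6 at 1.5 years and 122, 106 and 112 at 5 years. The germ cell ADAM sum was 415, 424 and 464 FPKM at 1.5 years and 159, 416 and 316 FPKM at 5 years. The germ cell sum was thus 4.26, 4.57 and 4.66 times the stromal sum at 1.5 years and 1.31, 3.92 and 2.83 times at 5 years. Every 5-year ratio lay under every 1.5-year ratio, and 5-year replicate 1 was the farthest from them. These ratios are a description. ADAM18 and ADAM32 held most of the germ cell sum, whereas no single identifier held most of the stromal sum. The difference in the stromal sum between the ages nevertheless lay mostly in 1 identifier. This was MMP15 (ENSBGRG00000014725), with means of 12.0 FPKM at 1.5 years and 25.4 FPKM at 5 years.

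**Figure D2:**
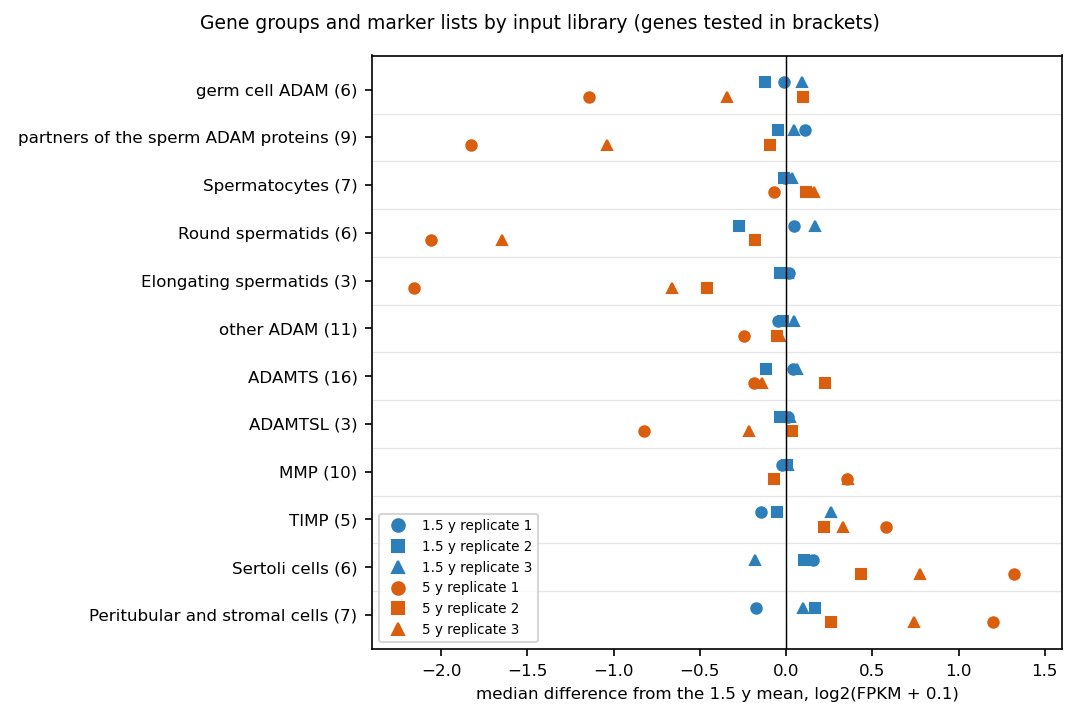
Median difference of each gene group from its 1.5-year mean on the log2(FPKM + 0.1) scale (horizontal axis) in each of the 6 input libraries, for the classes of the family and for marker lists, with the number of genes tested in brackets. Germ cell ADAM genes and spermatid markers lie farthest to the left in 5-year replicate 1, Sertoli and peritubular markers lie to the right in all 5-year libraries, and the ADAMTS and other ADAM classes stay near 0.

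Of the 34 ADAMTS identifiers 16 were tested, and 3 were higher at 5 years and 0 lower at an unadjusted p-value under 0.05, against 14.2% and 10.9% of all genes. ADAMTS1, a secreted protease that cuts the proteoglycans versican and aggrecan, was low, with 0.556, 0.344 and 0.546 FPKM at 1.5 years and 2.99, 0.753 and 1.27 FPKM at 5 years. Every 5-year library was above the 1.5-year libraries, and replicate 1 was the highest. The difference was 1.42 (SE 0.48, adjusted p = 0.163), the largest of the 51 members, and it was 0.92 without 5-year replicate 1. ADAMTS5, the neighbour of ADAMTS1 in the RefSeq gene order and another aggrecan-cutting enzyme, was under the filter, with at most 0.323 FPKM in a library. ADAMTS7, known to cut cartilage oligomeric matrix protein, had 4.18, 3.38 and 3.98 FPKM at 1.5 years and 10.4, 6.08 and 8.34 FPKM at 5 years. The ages were clearly apart, and the difference was 1.06 (SE 0.22, adjusted p = 0.154).

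ADAMTS16 and ADAMTS20 each stood on several identifiers that differed in direction or size. The ADAMTS16 identifier ENSBGRG00000009147 had 2.06, 1.53 and 2.72 FPKM at 1.5 years and 4.66, 6.06 and 3.67 FPKM at 5 years, a difference of 1.16 (SE 0.27, adjusted p = 0.154) with no overlap. The more abundant ADAMTS16 identifier ENSBGRG00000009109 had 8.56, 8.72 and 10.7 FPKM and 6.56, 9.35 and 7.68 FPKM, with overlapping ages and a difference of -0.25 (SE 0.18, adjusted p = 0.390). The most abundant ADAMTS identifier was ADAMTS20 (ENSBGRG00000019486), of an enzyme related to ADAMTS9, with 10.6, 12.9 and 13.2 FPKM at 1.5 years and 10.7, 9.38 and 9.35 FPKM at 5 years. Its lowest 1.5-year and highest 5-year values overlapped, and the difference was -0.31 (SE 0.15, adjusted p = 0.233). The other 3 tested ADAMTS20 identifiers had differences of -0.82, -0.47 and -0.10, and all 3 overlapped. ADAMTS2, which cuts the amino-terminal propeptide off procollagen, had 2 tested identifiers with differences of -0.43 and -0.19. The first of them was lower in every 5-year library, at 0.595 to 0.817 FPKM against 0.917 to 1.05 FPKM. ADAMTS9, ADAMTS10 and ADAMTS17 had differences of 0.06 to 0.68, and each overlapped.

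The 3 tested ADAMTSL identifiers followed the germ cell ADAM order of the 5-year libraries and not that of ADAMTS1. Under the filter, ADAMTSL4 had 0.276, 0.109 and 0.245 FPKM at 5 years, the order of ADAMTS1. ADAMTSL2 (ENSBGRG00000004026), also under the filter, was highest in 5-year replicate 1, at 0.619 FPKM. All 3 tested identifiers had their lowest value in 5-year replicate 1, as did 35.5% of all genes tested. ADAMTSL3 had 7.63, 7.40 and 7.71 FPKM at 1.5 years and 4.43, 7.27 and 6.64 FPKM at 5 years, and every 5-year library was lower. The difference was -0.34 (SE 0.20, adjusted p = 0.319), and it was -0.12 without 5-year replicate 1. ADAMTSL5 had 5.68, 6.23 and 5.70 FPKM and 3.27, 7.12 and 5.05 FPKM, with overlapping ages and a difference of -0.25 (SE 0.27, adjusted p = 0.554), which turned to 0.03 without 5-year replicate 1. ADAMTSL1 had 2.41, 1.91 and 2.25 FPKM and 0.961, 2.23 and 1.41 FPKM, with a difference of -0.55 (SE 0.30, adjusted p = 0.277), or -0.28 without that library, and its ages overlapped too. The likeness in order is a description of the same 6 libraries and was not tested.

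Of the 27 MMP identifiers 10 were tested, with a median difference of 0.18. MMP15, a membrane-anchored MMP, was the most abundant, with 14.96, 10.6 and 10.5 FPKM at 1.5 years and 36.5, 14.2 and 25.7 FPKM at 5 years (ENSBGRG00000014725). Replicates 1 and 3 of the 5-year group were above all others, and replicate 2 lay under the highest 1.5-year library. The difference was 1.00 (SE 0.34, adjusted p = 0.165), with an unadjusted p of 0.022. MMP28, the secreted enzyme epilysin, had 6.13, 5.53 and 5.75 FPKM at 1.5 years and 6.32, 6.39 and 6.99 FPKM at 5 years. Its ages did not overlap, but the difference was small, at 0.18 (SE 0.13, adjusted p = 0.412). MMP24, a membrane-anchored MMP best known from neurons, had 6.11, 6.14 and 5.29 FPKM at 1.5 years and 4.77, 5.80 and 6.91 FPKM at 5 years under ENSBGRG00000009705. This identifier overlapped between the ages, with a difference of -0.02 (SE 0.18, adjusted p = 0.958). The lower MMP24 identifier ENSBGRG00000009612 had 0.724, 1.21 and 0.899 FPKM at 1.5 years and 0.433, 0.545 and 0.590 FPKM at 5 years. Every 5-year library was lower there, with a difference of -0.73 (SE 0.30, adjusted p = 0.189).

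The gelatinases and collagenases were low. MMP2, gelatinase A, had 2.15, 1.54 and 2.40 FPKM at 1.5 years and 3.04, 2.05 and 1.85 FPKM at 5 years, and MMP14, the membrane-anchored enzyme that activates it, had 0.668 to 0.932 FPKM and 0.730 to 1.30 FPKM. Both overlapped, with differences of 0.17 (SE 0.26) and 0.19 (SE 0.29). MMP13, a collagenase, had 2.07, 1.43 and 2.11 FPKM at 1.5 years and 0.580, 1.64 and 1.06 FPKM at 5 years. It too overlapped, with a difference of -0.81 (SE 0.37, adjusted p = 0.216), against the direction of MMP15. MMP9, gelatinase B, was listed at 0 in all 6 libraries, and MMP3, MMP7, MMP8 and MMP12 were at 0 in at least 4 of the 6. MMP9 and MMP8 are best known from neutrophils, whose markers S100A8 and S100A9 were listed at 0 in 5 and 6 of the 6 libraries, while the third marker, CSF3R, had 0.626 to 1.08 FPKM.

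Among the inhibitors, TIMP2 was more abundant than any stromal identifier. TIMP2, which inhibits MMPs and also helps MMP14 to activate MMP2, had 74.9, 110 and 69.2 FPKM at 1.5 years and 124, 68.6 and 115 FPKM at 5 years (ENSBGRG00000019564). Its ages overlapped fully, with a difference of 0.26 (SE 0.29, adjusted p = 0.575). In FPKM it was 0.65 to 1.19 times the sum of all 69 stromal identifiers in the same library. TIMP3, which binds to the matrix, had 13.2, 13.7 and 12.8 FPKM at 1.5 years and 26.1, 16.4 and 22.9 FPKM at 5 years. The 1.5-year libraries were nearly equal, every 5-year library was higher, and the difference was 0.69 (SE 0.19, adjusted p = 0.154). The second TIMP2 identifier ENSBGRG00000019651 went the other way, with 5.31, 5.94 and 7.40 FPKM at 1.5 years and 1.85, 4.08 and 4.78 FPKM at 5 years. The difference was -0.87 (SE 0.35, adjusted p = 0.183) with no overlap, and it was -0.47 without 5-year replicate 1.

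TIMP4 and TIMP1 were low. TIMP4 had 0.695, 0.666 and 0.952 FPKM at 1.5 years and 1.38, 1.00 and 0.983 FPKM at 5 years under ENSBGRG00000022315, higher in every 5-year library by a difference of 0.49 (SE 0.26, adjusted p = 0.273). Its other identifier, ENSBGRG00000022226, had 0.752, 0.685 and 1.27 FPKM and 0.575, 1.03 and 0.650 FPKM, with a difference of -0.23 (SE 0.34, adjusted p = 0.681) and overlapping ages. TIMP1 was under the filter and not tested, with 0.128, 0.463 and 0.550 FPKM at 1.5 years and 0.736, 0.649 and 0.363 FPKM at 5 years, which overlap.

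Of the other ADAM identifiers 11 were tested, and 2 were higher and 1 was lower at an unadjusted p-value under 0.05, against 14.2% and 10.9% of all genes. ADAM10, the main sheddase of Notch receptors, was the most abundant, with 8.18, 7.57 and 7.32 FPKM at 1.5 years and 11.3, 7.98 and 10.4 FPKM at 5 years. Its replicate 2 at 5 years lay inside the 1.5-year range, and the difference was 0.34 (SE 0.17, adjusted p = 0.240). ADAM17, the sheddase of TNF, was nearly level, with all 6 libraries between 2.93 and 3.57 FPKM. ADAM11, which has no protease activity and is best known from neurons, had 5.84, 4.54 and 4.42 FPKM at 1.5 years and 8.44, 6.37 and 7.37 FPKM at 5 years (ENSBGRG00000025008). Every 5-year library was higher, with a difference of 0.58 (SE 0.18, adjusted p = 0.154).

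ADAM12 and ADAM8 differed in opposite directions. ADAM12, known from muscle and connective tissue, had 6.84, 5.50 and 4.59 FPKM at 1.5 years and 1.27, 3.67 and 3.00 FPKM at 5 years (ENSBGRG00000009507). Every 5-year library was lower, with replicate 1 the lowest, and the difference was -1.17 (SE 0.38, adjusted p = 0.157), or -0.73 without 5-year replicate 1. A second ADAM12 identifier had a difference of -0.97 (SE 0.58, adjusted p = 0.310) and overlapped. The third, ENSBGRG00000009261, was under the filter and overlapped, with means of 0.362 FPKM at 1.5 years and 0.482 FPKM at 5 years. ADAM8, known from leukocytes, had 0.777, 0.404 and 0.625 FPKM at 1.5 years and 0.817, 1.21 and 1.14 FPKM at 5 years. Its ages stood apart by a narrow gap, with a difference of 0.74 (SE 0.31, adjusted p = 0.198). Of the 5 macrophage markers, all tested, 0 were higher and 2 were lower at an unadjusted p-value under 0.05. The shares of all genes were 14.2% and 10.9%. The macrophage markers had sums of 22.6 to 25.8 FPKM at 1.5 years and 13.4 to 27.9 FPKM at 5 years, and none was at 0. Their part in the ADAM8 result was not tested. ADAM15 was lower in every 5-year library, at 0.798 to 1.15 FPKM against 1.29 to 1.58 FPKM, with a difference of -0.50 (SE 0.23, adjusted p = 0.213).

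**Figure D3:**
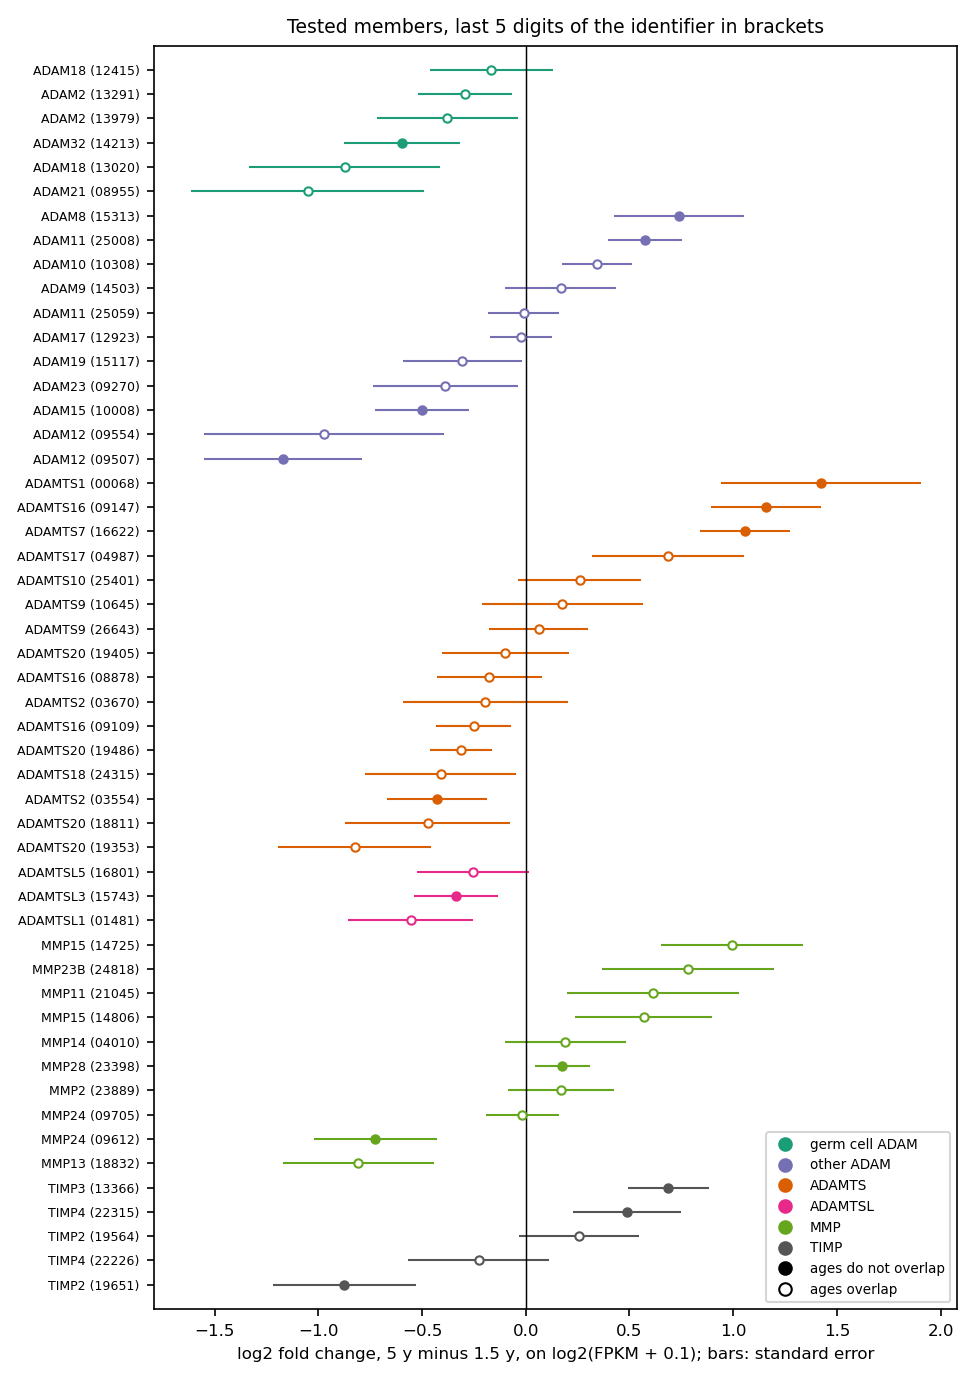
Difference between the ages on the log2(FPKM + 0.1) scale, with its SE, for the 51 tested members by class; filled points mark members whose libraries do not overlap between the ages. All 6 germ cell ADAM points and all 3 ADAMTSL points lie left of 0. The ADAMTS, MMP, TIMP and other ADAM points lie on both sides, from ADAMTS1 at 1.42 to ADAM12 at -1.17.

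Markers of somatic cells of the tubule wall and of Sertoli cells were higher in the 5-year libraries together with ADAMTS1, ADAMTS7, MMP15 and TIMP3. Of 8 Sertoli cell markers 6 were tested and all 6 were higher at an unadjusted p-value under 0.05, against 14.2% of all genes. Their sums were 73.7 to 86.6 FPKM at 1.5 years and 108 to 257 FPKM at 5 years. Of 8 peritubular and stromal markers 7 were tested and 4 were higher at that threshold, with sums of 21.6 to 23.5 FPKM and 29.1 to 50.1 FPKM. No marker of these lists that was tested was at 0, and AMH, CLDN11 and COL1A1 were not analysed here. The medians by library were 1.32, 0.44 and 0.78 for Sertoli markers and 1.20, 0.26 and 0.74 for peritubular and stromal markers in 5-year replicates 1, 2 and 3. The same order of the 5-year libraries, replicate 1 highest and replicate 2 lowest, was seen in ADAMTS1, ADAMTS7, MMP15, TIMP3 and ADAM11 (ENSBGRG00000025008). Of the 7 members higher at an unadjusted p-value under 0.05, the others did not have it. These were ADAMTS16, whose replicate 2 was the highest, and ADAM8, whose replicate 1 was the lowest 5-year library. DCN and LUM, unlike the other tested markers of both lists, had their lowest 5-year value in replicate 3. Of all genes tested, 33.7% had their highest value of the 6 libraries in 5-year replicate 1. The share of all genes with replicate 1 highest and replicate 2 lowest at 5 years was not computed. The part of Sertoli and peritubular cells in the results was not tested.

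**Figure D4:**
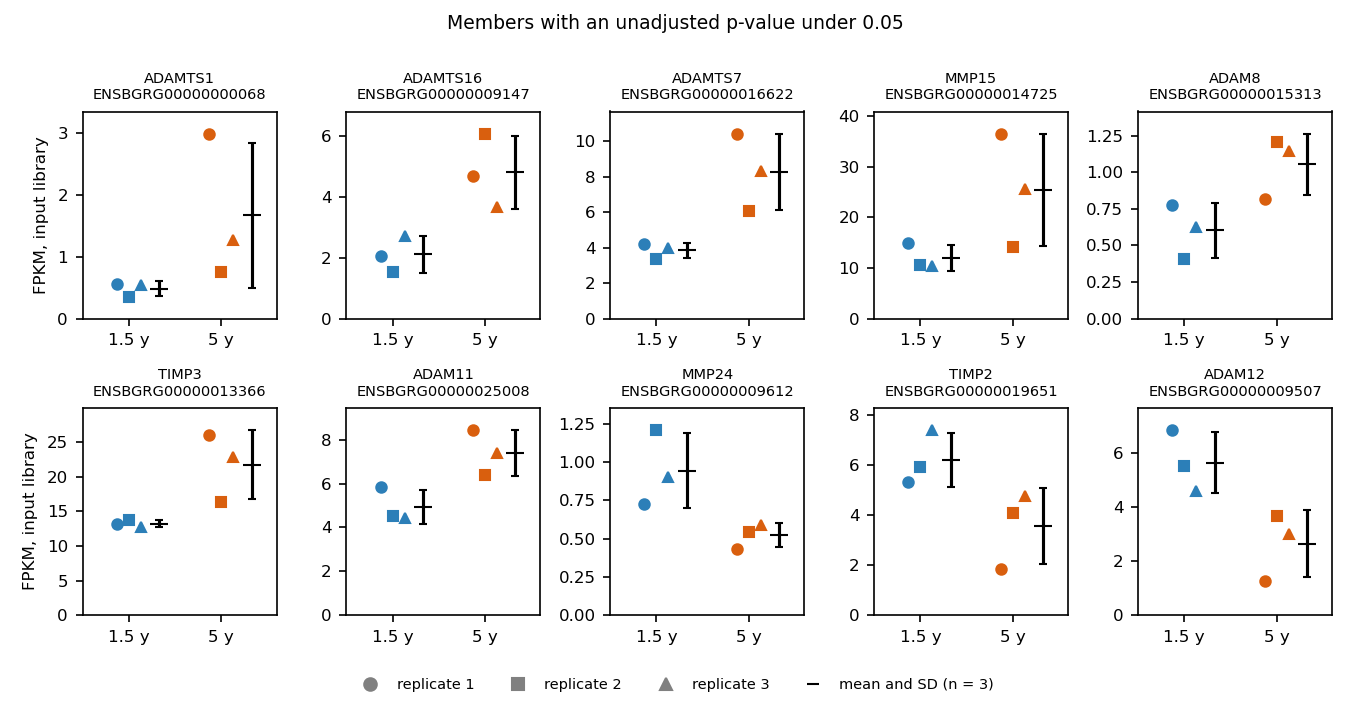
FPKM (vertical axes, linear, from 0) in the 6 input libraries for the 10 members with an unadjusted p-value under 0.05, from the largest positive to the largest negative difference, with the mean and SD (n = 3) beside each age. In 9 of the 10 panels the ages do not overlap, MMP15 being the exception, and none of the 10 had an adjusted p-value under 0.05.

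Genes that regulate these enzymes or are cut by them gave no common direction. Of a fixed list of 18, 11 were tested, and the median difference was -0.01. At an unadjusted p-value under 0.05, 1 was higher and 1 was lower, against 14.2% and 10.9% of all genes. LRP1, a receptor that takes up MMPs, ADAMTS enzymes and TIMP3, had 5.51, 7.61 and 6.13 FPKM at 1.5 years and 11.2, 7.52 and 11.0 FPKM at 5 years. Its replicate 2 at 5 years lay under one 1.5-year library, and the difference was 0.61 (SE 0.21, adjusted p = 0.165). ACAN, which codes for aggrecan, a substrate of ADAMTS1, had 2.52, 1.99 and 2.44 FPKM at 1.5 years and 1.07, 1.76 and 0.983 FPKM at 5 years. Every 5-year library was lower, with a difference of -0.85 (SE 0.25, adjusted p = 0.154). RECK, a membrane-anchored inhibitor of MMPs, stood on 6 identifiers, of which only the most abundant was analysed here. This identifier was higher in every 5-year library, with 0.942, 1.236 and 0.952 FPKM at 1.5 years and 2.29, 1.239 and 1.46 FPKM at 5 years. The gap between the ages was only that between the 2 libraries numbered 2. Its difference was 0.59 (SE 0.27, adjusted p = 0.223). BSG, THBS1 and VCAN were not analysed here.

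A symbol often stood on several identifiers, which bears on what a value of this family means. Of the 62 symbols 24 stood on more than 1 identifier, 62 identifiers together, and 22 of the 24 had 1 gene under the same symbol in the RefSeq annotation of another yak assembly (Bosgru_T2T1.0). Each further tested identifier was set against the most abundant one of its symbol, which gave 15 pairs under 12 symbols, and in 4 pairs the differences had opposite signs (ADAM11, ADAMTS16, TIMP2 and TIMP4). The log2 ratio of both identifiers within a library did not overlap between the ages for 4 pairs that are not all the same ones, namely ADAMTS16 (a change in the ratio of 1.41), ADAM11 (-0.59), MMP24 (-0.71) and TIMP4 (-0.71). The exact permutation p-value was 0.1 for each of these, the smallest that 3 against 3 libraries allow, and 0.375 after adjustment over the 15 pairs. The share of non-overlapping ratios among all symbols of the expression table on several identifiers was not computed. Whether such identifiers are parts of 1 gene or separate copies was not tested. Counted with 1 identifier per symbol, the one with the highest mean, 36 members were tested. At an unadjusted p-value under 0.05, 6 were higher and 1 was lower, against 14.2% and 10.9% of all genes, which were counted by identifier. The medians were -0.73 for 4 germ cell ADAM genes and 0.17 for 20 stromal genes.

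**Figure D5:**
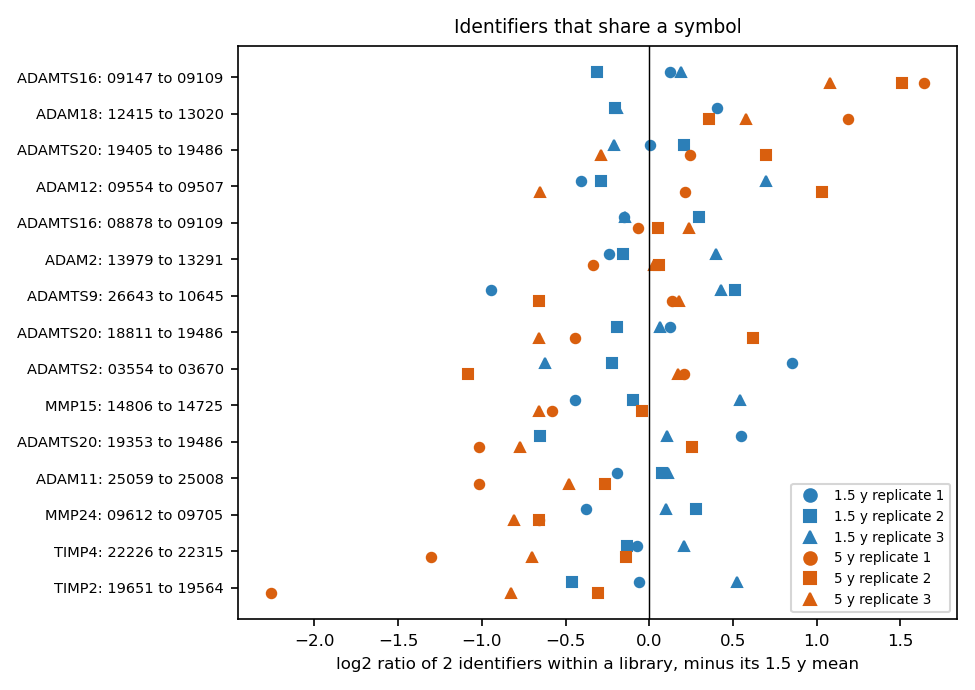
Log2 ratio of 2 identifiers that share a symbol, within each of the 6 input libraries and minus its 1.5-year mean (horizontal axis), for 15 pairs. Points of both ages are separate for the topmost ADAMTS16 pair, ADAM11, MMP24 and TIMP4 and overlap in the other 11 pairs.

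The 49 members under the filter were those with a mean FPKM of at most 0.482, and 7 of them were listed at 0 in every library. Among the ADAMTS identifiers, 18 were under the filter, with means of up to 0.325 FPKM, and 3 of these (ADAMTS13, ADAMTS15 and ADAMTS19) were higher in every 5-year library. Of all genes under the filter, those at 0 included, 6.09% were higher and 3.36% were lower in every 5-year library. ADAMTS13, the protease that cuts von Willebrand factor, had 0.083, 0.097 and 0.297 FPKM at 1.5 years and 0.662, 0.329 and 0.481 FPKM at 5 years. One MMP16 identifier (0.199 to 0.227 FPKM against 0.273 to 0.633 FPKM), one of ADAM23 and one of ADAMTSL2 showed the same order, and one of ADAMTSL5 the opposite. ADAMTS4, an aggrecan-cutting enzyme, had at most 0.388 FPKM in a library. ADAM7, which is made in the epididymis, was at or under 0.054 FPKM on both of its identifiers, and of the epididymal markers CRISP1 was listed at 0 in all 6 libraries, while SPINT4 had 3.72 to 6.37 FPKM and LCN8 0.517 to 1.75 FPKM. These genes are given as values with no test.

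The deposited comparison of m6A peaks between the ages placed a differential peak on 3 of the 100 members (3.00%), against 5.63% of all genes in the expression table. Among genes that passed the filter the shares were 3 of 51 members (5.88%) and 9.29% of 12437 genes. The table gives no direction, fold change or p-value per peak, so these are positions only. The first peak, of 299 bp, lay at chr19:21325753-21326051 of LU_Bosgru_v3.0, in exon 12 of 12 of ADAM11 (ENSBGRG00000025059, minus strand). The second, of 151 bp, lay at chr20:45791567-45791717 in the 3′ UTR of ADAMTS18 (ENSBGRG00000024315, plus strand), 448 bp before the end of the gene. The third, of 686 bp, lay at chr12:58855109-58855794 in exon 3 of 6 of MMP24 (ENSBGRG00000009705, minus strand). No germ cell ADAM, ADAMTSL or TIMP identifier carried such a peak, nor did ADAMTS1.

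None of the 3 identifiers with a peak had an unadjusted p-value under 0.05 for RNA level. ADAM11 (ENSBGRG00000025059) had 2.35, 2.20 and 2.20 FPKM at 1.5 years and 1.89, 2.44 and 2.42 FPKM at 5 years, with a difference of -0.01 (SE 0.17). ADAMTS18 had 1.17, 0.482 and 0.819 FPKM and 0.446, 0.643 and 0.610 FPKM, with a difference of -0.41 (SE 0.37, adjusted p = 0.481). All 3, the MMP24 identifier included, overlapped between the ages. For ADAM11 and MMP24, the identifier with the peak was not the one with an unadjusted p-value under 0.05.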

How the data were processed

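FPKM values per gene and input library were deposited by the authors. Per the methods, reads were trimmed with Trimmomatic, rRNA reads were removed with SortMeRNA, and reads were aligned with HISAT2 (2.0.4 in the submitters' processing notes) to LU_Bosgru_v3.0. The program that computed FPKM is not given in the sources used here. The authors called m6A peaks with MeTDiff and annotated them with ChIPseeker; how replicates entered is not stated. Peak positions and widths were taken as deposited from the table of differential peaks. The peak lists of single groups and the IP libraries were not used here.

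The age in a library's title set its group. For the input libraries, log2(FPKM + 0.1) was fitted by limma 3.58.1 (R 4.3.3, eBayes with a trend, two-sided) over the 12437 genes averaging 0.5 FPKM or more, with Benjamini-Hochberg adjustment. Python 3.11.15 and pandas 2.3.3 were used for the rest. FPKM summed to 116187 to 139921 per library. Fragment counts are unknown; step sizes among the lowest values put the relative depth of the libraries most often at 1.00 to 1.09, but the commonest step held only 7.78% to 13.3% of the genes compared. On simulated data with 200 changed genes, 75% were called at a log2 change of 2 and 8% at a change of 1, and 0 genes were called with no change.

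The members and lists were chosen with earlier results of these data known. Named with each library's value were ADAMTS1, the TIMP genes and members with an unadjusted p-value under 0.05 and no overlap. So were members with a peak and the 3 members of each class with the highest mean. Added after their values were seen were ADAM15, ADAM17, ADAM21, ADAMTS2, ADAMTS13, ADAMTSL4, MMP2, MMP13, MMP14 and MMP16. The second ADAM2 and ADAM18 identifiers, the list genes PRSS37, CLGN, LRP1, ACAN and RECK and the marker TNP1 were also added then. Marker lists whose counts are not in the report were spermatogonia (6 of 7 tested, 0 higher and 0 lower at an unadjusted p-value under 0.05), Leydig cells (2 of 6, 0 and 1), neutrophils (1 of 3, 0 and 0), endothelial cells (3 of 4, 0 and 0) and epididymis (2 of 5, 0 and 0). Of all genes tested, 14.2% were higher and 10.9% lower at that threshold. Alternatives were other pseudocounts, filters, scalings and forms of eBayes, a replicate block, each library left out, and 1 identifier per symbol.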

Additional observations from a re-analysis of the deposited data

How the results depend on the processing

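No member passed an adjusted p of 0.05 at pseudocounts of 0.01 and 1, a filter at 1 FPKM or none, other scalings or forms of eBayes, or 1 identifier per symbol. Leaving out 1 library gave 0 to 10 such members. The 10 came without 5-year replicate 2, when 2403 of all genes passed. They were ADAMTS1, ADAMTS7, MMP15, MMP23B, TIMP3 and ADAM11 (higher) and ADAM21, both tested ADAM12 identifiers and 1 of ADAMTS20 (lower). Leaving out 1 library also gave 0 to 4 germ cell ADAM identifiers lower and 2 to 6 stromal identifiers higher at an unadjusted p-value under 0.05, with 2 without 1.5-year replicate 2, and germ cell medians of -0.73 to -0.18. The stromal median of -0.02 became 0.11 with libraries scaled to the same sum, which moved the median of all genes from 0.04 to 0.17, so that it stayed at -0.06 relative to all genes. It became 0.17 with 1 identifier per symbol and 0.08 with no filter, so its sign is not settled. Members higher and lower at an unadjusted p-value under 0.05 numbered 7 and 3 as reported, 8 and 2 with the same sum, 6 and 7 with quantile normalization, 8 and 5 without a trend and 9 and 3 with no filter. Without 5-year replicate 2 they numbered 9 and 12, without 1.5-year replicate 2 they numbered 3 and 2, and without 1.5-year replicate 3 they numbered 4 and 1. With the replicate block they numbered 6 and 2, with 0 after adjustment, 0 germ cell ADAM identifiers lower and 4 stromal identifiers higher. As reported, 14.2% of all genes were higher and 10.9% lower at that threshold. Without 5-year replicate 2, 18.3% were lower, and the other shares of all genes were not computed. The ages came from different animals, and the replicate numbers are not said to pair them. Deviations from the age means correlated at -0.02, -0.09 and 0.01 for same-numbered libraries and at -0.13 to 0.14 for others. Such deviations sum to 0 within each age, so these correlations cannot show whether the numbers pair libraries. The count of 3 members with a peak did not depend on peak length, since the longest had 686 bp. The cause of these shifts was not tested. With 3 libraries per age and no fragment counts, a log2 change of 1 was called in 8% of simulated cases. The simulation had no library standing apart, so this share need not hold for these data.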

Other observations

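Members that lie side by side in the RefSeq gene order of Bosgru_T2T1.0 held unlike levels. ADAM9, ADAM32 and ADAM2 stand within 4 consecutive genes, and their most abundant identifiers had means over the 6 libraries of 1.22, 121 and 56.0 FPKM. ADAM9 differed by 0.17 (SE 0.27), and ADAM32 and ADAM2 by -0.60 (SE 0.28) and -0.29 (SE 0.23), between the ages. MMP13 and MMP12 are neighbours, with means of 1.48 and 0.020 FPKM. MMP27, MMP20 and MMP7 follow one another, with means of 0.074, 0.233 and 0.029 FPKM. These are values with no test.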
